A study of Homo sapiens with 19 samples.

Results

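The replication-dependent histone genes are the genes that supply most of the histone protein packed onto new DNA during S phase. They were taken here as the Ensembl gene IDs whose symbols are H1-1 to H1-6, or H2AC, H2BC, H3C or H4C followed by a number. 69 such genes were found among 84354 gene IDs in the 3 deposited count tables: 6 encode the linker histone H1, 17 H2A, 18 H2B, 13 H3 and 15 H4. The table of HCT116 holds 67 of them (H2AC18 and H2AC19 are not listed in it), and the short-read and long-read tables of WiDr hold all 69.

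HCT116 and WiDr are human colorectal carcinoma cell lines. HCT116 cells received DMSO, the vehicle, or 5 µM GSK715 (GSK3368715, labelled as an inhibitor of the arginine methyltransferase PRMT1), or 10 µM GSK025 (GSK3235025, labelled as an inhibitor of PRMT5), each for 96 h in 3 libraries. WiDr cells received DMSO or 5 µM GSK715 for 96 h in 3 libraries each, and the same treatments were also read as Oxford Nanopore (ONT) full-length cDNA in 2 libraries each. The short-read libraries of both lines were poly(A)-enriched and sequenced in pairs, whereas the labels do not say how the ONT cDNA was primed or selected.

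Most messenger RNAs end in a poly(A) tail, but those of replication-dependent histones normally do not. The transcript is cut just after a conserved stem-loop by the U7 small nuclear ribonucleoprotein, the stem-loop binding protein SLBP holds the end, and the RNA is destroyed when DNA synthesis stops. Some of these genes can also be read through to a downstream polyadenylation site, which gives a tailed RNA that persists outside S phase and in differentiated cells. A library enriched for poly(A) is built to capture tailed forms. In bulk samples fewer cells making such RNA and less RNA per cell cannot be told apart.

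The stem-loop is shown for members whose counts changed in the comparisons below, H4C11 among them on few reads, and for H4C14. It was searched for as the stem GG followed by a pyrimidine-rich arm and its reverse complement, the consensus known as the histone 3′-end stem-loop, in the RNA strand of annotated coding transcripts (GENCODE 29, GRCh38). Capitals mark the 16 bases of the stem and loop.
H2AC6 stem-loop, chr6:26124664-26124689, plus strand: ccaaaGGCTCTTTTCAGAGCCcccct
H2AC25 stem-loop, chr1:228457364-228457389, minus strand: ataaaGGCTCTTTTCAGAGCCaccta
H2BC5 stem-loop, chr6:26158582-26158607, plus strand: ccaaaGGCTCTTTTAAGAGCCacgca
H2BC21 stem-loop, chr1:149886183-149886208, minus strand: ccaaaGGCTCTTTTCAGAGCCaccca
H3C6 stem-loop, chr6:26225591-26225616, plus strand: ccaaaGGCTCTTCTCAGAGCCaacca
H4C16 stem-loop, chr12:14770719-14770744, minus strand: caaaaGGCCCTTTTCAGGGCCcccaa
H4C11 stem-loop, chr6:27824454-27824479, plus strand: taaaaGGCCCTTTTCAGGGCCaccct
H4C14 stem-loop, chr1:149833027-149833052, plus strand: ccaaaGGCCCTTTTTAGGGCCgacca
The stem-loop begins 40 bases after the stop codon in H2AC25. The annotated transcript then runs on for 390 bases in H2AC25, 1128 in H2AC6, 1862 in H3C6, 1510 in H4C16 and 39 in H2BC5. A second coding transcript of H2BC5, in which no match was found, runs 384 bases past the stop codon. A match was found in 29 of the 65 members that the annotation holds, and 32 of the 65 have models that end at the stop codon and so contain no 3′ sequence to search, H1-2 and H2BC12 among them.

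Members lie close together and share sequence. Of the 65 annotated members, 53 lie on chromosome 6, 11 on chromosome 1 and 1, H4C16, on chromosome 12. Only coding sequences of equal length were compared. Those of 136 such pairs of H2B genes were 84.7% to 94.4% identical (median 89.8%), and H4C11 and H4C12, H4C14 and H4C15, and H3C14 and H3C15 were 100% identical. How the authors' counting split reads among such copies is not given in the sources used here: in WiDr short reads the 2 genes of a pair held 1333 and 1348 counts over the 6 libraries for H4C14 and H4C15, 384 and 382 for H2AC18 and H2AC19, and 11 and 28 for H4C11 and H4C12. H4C14 and H4C15 held 396 and 443 counts in HCT116, and in ONT H4C11 and H4C12 held 20 and 3. Both genes of such a pair enter the counts and medians of members given below, although they are not separate measurements.

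Promoters are shown for 3 members that did not respond alike, as the 300 bases from 250 before to 50 after the RefSeq start (GRCh38.p14), in the direction of transcription. Capitals mark the octamer ATGCAAAT, the TATA box TATAAA, the CCAAT box CCAAT and the E2F-like motif TTCGCGC on either strand. H2AC6 and H2BC12 carry the octamer, and H2BC5 does not have these letters in the window.
H2AC6 promoter, chr6:26123922-26124221, plus strand: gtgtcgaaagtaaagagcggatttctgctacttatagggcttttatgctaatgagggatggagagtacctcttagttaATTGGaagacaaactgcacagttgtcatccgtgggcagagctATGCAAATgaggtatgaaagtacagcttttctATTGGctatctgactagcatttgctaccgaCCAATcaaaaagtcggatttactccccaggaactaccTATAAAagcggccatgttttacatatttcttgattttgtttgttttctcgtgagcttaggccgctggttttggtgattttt
H2BC5 promoter, chr6:26157871-26158170, plus strand: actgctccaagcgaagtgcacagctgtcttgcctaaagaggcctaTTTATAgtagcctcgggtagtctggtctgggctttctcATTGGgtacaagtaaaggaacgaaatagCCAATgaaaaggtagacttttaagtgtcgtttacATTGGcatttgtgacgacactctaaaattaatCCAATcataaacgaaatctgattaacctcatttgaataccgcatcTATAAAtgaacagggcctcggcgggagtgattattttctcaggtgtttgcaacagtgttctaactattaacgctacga
H2BC12 promoter, chr6:27146809-27147108, minus strand: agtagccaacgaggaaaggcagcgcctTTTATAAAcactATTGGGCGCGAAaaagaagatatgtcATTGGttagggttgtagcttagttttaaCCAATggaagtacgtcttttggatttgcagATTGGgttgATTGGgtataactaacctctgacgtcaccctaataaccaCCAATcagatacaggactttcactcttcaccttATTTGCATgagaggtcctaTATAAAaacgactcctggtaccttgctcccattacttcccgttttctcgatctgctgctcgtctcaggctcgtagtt
Promoters of 64 members were matched. The octamer was present in 14 of 18 H2B and 11 of 16 H2A promoters, in 1 of 11 H3 promoters, and in 0 of 13 H4 and 0 of 6 H1 promoters, compared with 1.77% of 35116 promoters of all genes. The H3 match is H3C4, whose listed window is the same 300 bases as that of H2AC7. Windows of head-to-head H2A and H2B genes can overlap, so 1 octamer can count for both genes, as with H2AC6 and H2BC4. CCAAT was present in 84.4% of the members against 34.6% of all promoters, but in 3 of 13 H4 promoters, and TATAAA in 65.6% against 11.5%. The E2F-like letters were present in 18.8% against 2.24%. These are matches of letters and say nothing of binding.

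Library totals, to 6 digits, were 64558700 to 66915800 counts in HCT116, 59612900 to 82390300 in the short reads of WiDr and 1449700 to 1667810 in ONT. Levels of single genes, and sums over the lists of other genes, are given as TMM-scaled CPM: the count per 1e6 counts of the tested genes, adjusted by edgeR's TMM factor of the library. Sums over the members and over their classes are instead given per 1e6 counts of the library total, so the 2 scales differ slightly and single genes do not add up to these sums. Fold changes come from edgeR fits over every gene of a table, with adjusted p-values (Benjamini-Hochberg) called under 0.05. In HCT116 17 members had no count in any library, in WiDr short reads 10 and in ONT 6. A count of 0 over all libraries of a table still allows 0.00508 CPM of the summed library totals in HCT116, 0.00751 CPM in WiDr short reads and 0.482 CPM in ONT, for counting error only. The colon epithelial markers summed to 4446 to 4547 CPM in HCT116 DMSO and 15594 to 15871 CPM in WiDr DMSO. With treatment their sum was higher: 7546 to 7935 CPM with GSK025 and 5717 to 6124 with GSK715 in HCT116, and 22519 to 23026 in WiDr. In ONT it went from 15604.4 to 15785.5 CPM with DMSO to 19577.6 to 21178.4 with GSK715. What this has to do with the histone levels was not tested. No label says whether replicates were grown separately. The tests therefore reflect variation from library to library, part of which may be technical. The messenger RNA of the targeted enzymes does not check the labels, since the drugs act on the proteins: PRMT1 was called higher in HCT116 with both drugs (log2 fold changes 0.42 with GSK025 and 0.45 with GSK715) and slightly lower in WiDr (-0.12).

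A few members carried nearly all of the signal in the poly(A)-enriched libraries. In HCT116 DMSO H1-2, a linker histone gene, was at 24.5, 23.5 and 20.4 CPM, and the gene held 34.5% of the member counts of that table. Per kilobase of annotated exon, the order in HCT116 DMSO was H1-2 at 35.5 ± 3.31 CPM per kb, H2BC12 at 19.2 ± 4.94, H2AC25 at 8.64 ± 0.574, H2BC5 at 6.27 ± 0.989 and H2AC6 at 3.19 ± 0.105 (SD, n = 3). The libraries of each of these genes stayed apart from those of its neighbours in that order. In WiDr DMSO the order was H2BC12 at 12.4 ± 3.25 CPM per kb, H2AC25 at 5.73 ± 0.337, H1-2 at 3.74 ± 0.833, H2AC6 at 2.52 ± 0.197 and H4C14 at 1.71 ± 0.113 (SD, n = 3). These 5 also stayed apart from neighbour to neighbour. H2BC12 and H1-2 are divided by models that end at the stop codon, so their values per kilobase are too high if the counted transcripts were longer.

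Summed over all members and set against the library total, the histone signal differed with treatment and line, as the plot of class sums shows. HCT116 stood at 68.1 ± 3.78 CPM with DMSO, at 129.6 ± 6.71 with GSK025 and at 52.2 ± 3.88 with GSK715 (SD, n = 3 each), and the ranges of the 3 groups did not overlap. WiDr short reads stood at 34.2 ± 1.06 CPM with DMSO and 69.5 ± 2.98 with GSK715 (SD, n = 3 each), again without overlap. In HCT116 GSK025 the H2B sum was 2.39 times and the H1 sum 1.84 times that of DMSO, while the H3 sums, 2.52 to 3.32 CPM against 1.92 to 2.90, overlapped. In WiDr the H2A sum was 2.68 times, the H3 sum 2.31 times and the H2B sum 1.98 times that of DMSO. The H1 sum of WiDr, 2.15 to 3.04 CPM with GSK715 against 2.44 to 3.14 with DMSO, overlapped. No test was run on these sums. Scaled by TMM in place of library totals, the log2 ratio of the sums went from -0.38 to -0.22 for GSK715 in HCT116 and from 1.02 to 0.90 in WiDr.

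**Figure D1:**
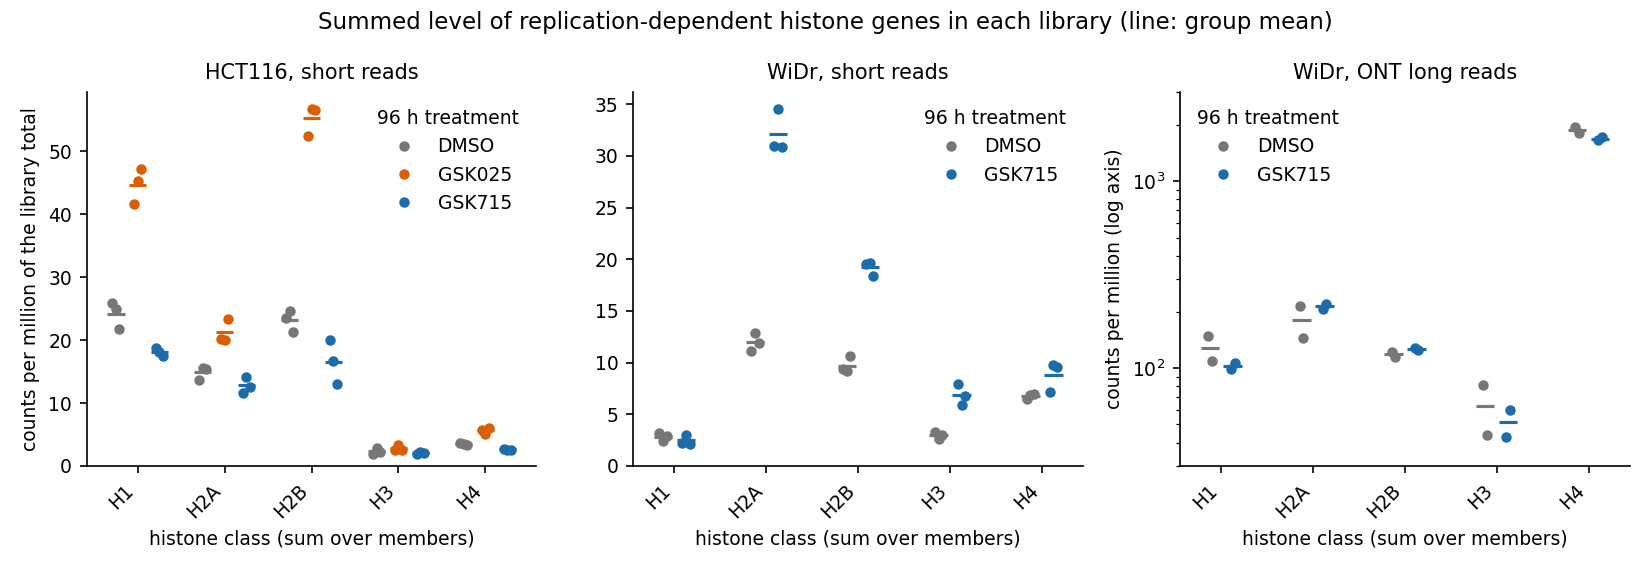
Each point is the sum of a histone class in 1 library, in CPM of the library total (y axis; logarithmic for ONT), and the line is the group mean. H2B and H1 of HCT116 are highest with GSK025, H2A of WiDr is about 12 CPM with DMSO and 32.1 CPM with GSK715, and the ONT libraries are dominated by H4.

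The comparison of GSK025 with DMSO in HCT116 asks how these genes differ with the compound labelled as an inhibitor of PRMT5. 8 members rose and 0 fell of 25 that passed the filter on low counts, in H1, H2A, H2B and H4. The 25 tested members had a median log2 fold change of 0.70 and all 19751 tested genes one of -0.02. Among all genes tested 22% rose and 22.1% fell, 44.1% in either direction, so the share of members called, 8 of 25 (32%), was not above the background. At an unadjusted p under 0.05, 9 members were higher and 0 lower, and DESeq2 called 9 higher and 0 lower. The 2 groups did not overlap in 12 of the 25, where 27% of all genes lay wholly higher and 27.8% wholly lower. 42 of the 67 members in the table were too low to test.

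H2BC5, an H2B gene on chromosome 6 (chr6:26158146-26171349, plus strand), rose the most among well-counted members. Its libraries held 6.43, 4.78 and 5.18 CPM with DMSO and 20.6, 21.7 and 25.6 CPM with GSK025. The groups were far apart, a 4.14-fold rise (log2 2.05, SE 0.18, adjusted p = 1.2e-06, edgeR quasi-likelihood test). H1-2 (chr6:26055787-26056428, minus strand) went from 24.5, 23.5 and 20.4 to 40.9, 44.9 and 46.8 CPM, 1.94-fold (log2 0.95, SE 0.083, adjusted p = 1.0e-06, edgeR). H2BC12 (chr6:27146418-27146798, minus strand) held 6.40, 9.48 and 6.07 CPM with DMSO and 15.9, 21 and 17.4 with GSK025, 2.47-fold (adjusted p = 4.4e-05, edgeR). In both genes every GSK025 library was above every DMSO library.

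H2AC25 (chr1:228456979-228457873, minus strand), which lies in the small cluster at the far end of chromosome 1, and H2BC21 (chr1:149884459-149886652, minus strand), in the cluster near the centromere, moved less. H2AC25 went from 7.27, 7.64 and 8.28 CPM to 11.7, 11.7 and 14.2, 1.62-fold (adjusted p = 0.00047, edgeR), and H2BC21 from 5.86, 4.69 and 5.64 CPM to 9.42, 9.37 and 8.44, 1.68-fold (adjusted p = 0.0080, edgeR). Neither gene's groups overlapped. H4C9, an H4 gene, rose 2.19-fold, from 1.17, 1.19 and 1.53 CPM to 2.20, 2.96 and 3.35 (adjusted p = 0.0037, edgeR). H2AC6 (chr6:26124145-26139116, plus strand) was at 5.13, 5.36 and 5.47 CPM with DMSO and 6.98, 6.11 and 7.01 with GSK025, and did not pass (log2 0.33, SE 0.18, adjusted p = 0.15, edgeR), although its groups did not overlap.

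The identical genes H4C11 and H4C12 were called on few reads. H4C11 held 4, 0 and 3 counts with DMSO and 20, 14 and 24 with GSK025 (log2 3.05, SE 1.00, adjusted p = 0.025, edgeR), and H4C12 held 7, 4 and 3 and then 25, 14 and 26 (log2 2.25, SE 0.79, adjusted p = 0.034, edgeR). The 2 genes share one coding sequence and so amount to 1 observation. Each lost its call without any of 4 libraries in turn (DMSO replicate 2 or 3, GSK025 replicate 1 or 3), with adjusted p-values up to 0.068 for H4C11 and 0.10 for H4C12.

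**Figure D2:**
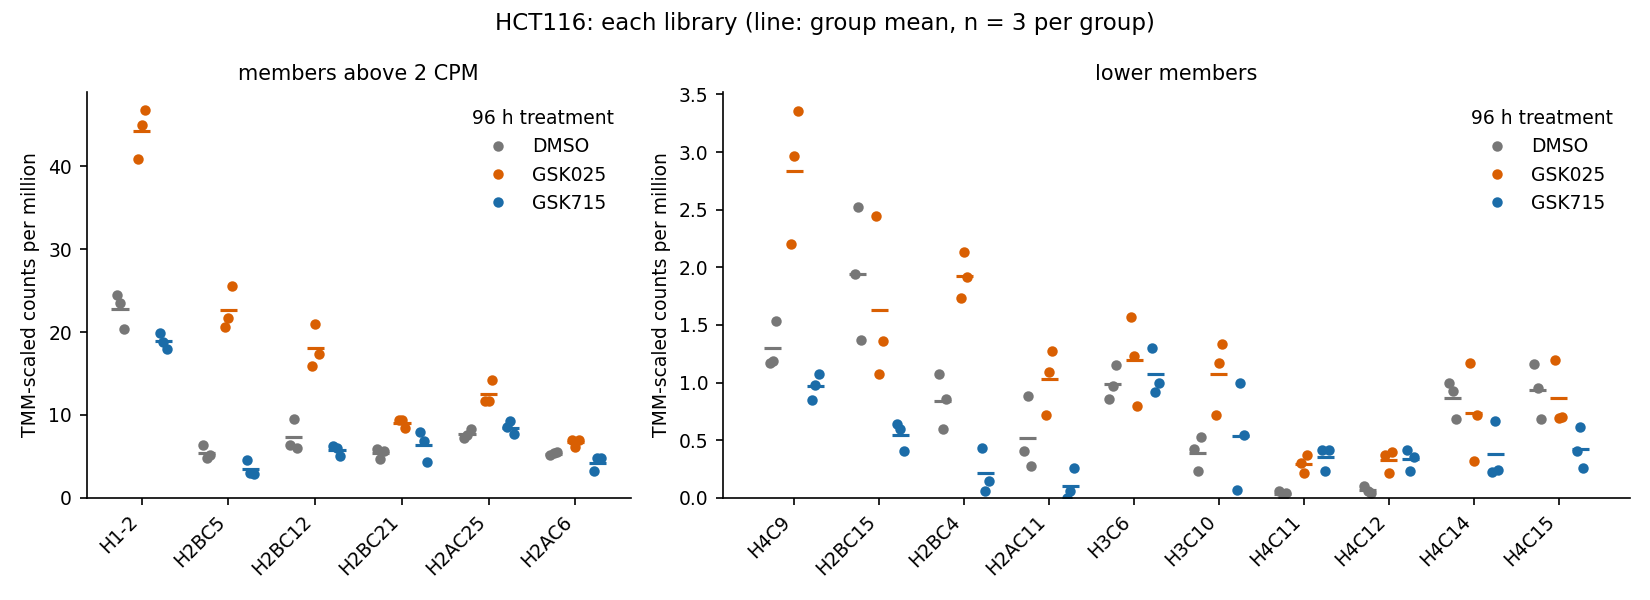
Each point is 1 HCT116 library (y axis: TMM-scaled CPM) and each line a group mean, for the members with the highest levels (left) and for lower ones (right). The GSK025 points of H1-2, H2BC5 and H2BC12 lie above all other libraries of the gene, and those of H4C11 and H4C12 are as high with GSK715 as with GSK025.

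The same HCT116 controls were compared with GSK715, labelled as an inhibitor of PRMT1, so the comparisons with DMSO are not independent of each other. 4 members fell and 2 rose of 25 tested, where 24.2% of all tested genes fell and 22.1% rose (46.4% in either direction). The 2 that rose were H4C11 and H4C12, which share one coding sequence. The median was -0.35 among tested members and -0.05 over all genes. The groups did not overlap in 15 of the 25, against 26.7% of all genes wholly higher and 30.3% wholly lower. H2BC5, the gene that rose most with GSK025, was at 4.59, 3.05 and 2.86 CPM with GSK715, below all DMSO libraries (log2 -0.64, SE 0.18, adjusted p = 0.011, edgeR). It was not called without DMSO replicate 1 or GSK715 replicate 3 (adjusted p up to 0.058). H1-2 was at 19.9, 18.7 and 18 CPM, a small drop (log2 -0.27, SE 0.084, adjusted p = 0.016, edgeR) that was lost without DMSO replicate 1 or 2 or GSK715 replicate 3 (adjusted p up to 0.083).

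The larger falls were in 2 H2B genes at low levels. H2BC15 (chr6:27837760-27865798, plus strand) went from 1.94, 2.52 and 1.37 CPM to 0.644, 0.60 and 0.402, 3.53-fold lower (adjusted p = 0.0017, edgeR), and its annotated span overlaps H2AC15 on the opposite strand. H2BC4 (chr6:26114873-26123926, minus strand) held 74, 41 and 59 counts with DMSO and 27, 4 and 9 with GSK715, 3.92-fold lower (log2 -1.97, adjusted p = 0.0098, edgeR), and at log2 -3.00 without GSK715 replicate 1. Both genes' groups were apart. H4C11 and H4C12 were called higher, as with GSK025: the GSK715 libraries held 26, 15 and 26 counts of H4C11 (log2 3.33, SE 1.00, adjusted p = 0.015, edgeR), and the value was 3.92 without DMSO replicate 1, as it was 3.64 with GSK025. H4C12 (log2 2.28) was not called without any 1 of 4 libraries, DMSO replicate 2 or 3 or GSK715 replicate 1 or 3 (adjusted p up to 0.095). H2AC25 was at 8.53, 9.23 and 7.67 CPM and H2BC21 at 7.95, 6.87 and 4.28, both overlapping DMSO (adjusted p = 0.43 and 0.37, edgeR). Scaling by library totals in place of TMM moved the median of all genes from -0.05 to -0.21 and raised the members called lower from 4 to 8. H2AC6 (log2 -0.48) and H2BC12 (-0.51) were then among those called lower, and 32.1% of all calls were higher, against 47.7% with TMM.

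Set directly against GSK025, GSK715 gave lower values in 9 members and higher ones in 0 of 25 (background 22.5% lower, 21.8% higher and 44.3% in either direction, with 49.2% of all calls higher under TMM and 39.1% under library totals). DESeq2 gave no member higher either, and 0 were higher at an unadjusted p under 0.05. The libraries did not overlap in 12 members, against 26% of all genes wholly higher and 27% wholly lower. The doses differed, 5 µM and 10 µM, so this compares the treatments as given. H2BC5 was 6.46-fold lower with GSK715 (adjusted p = 1.5e-07, edgeR), H2BC12 3.14-fold (adjusted p = 7.1e-06) and H1-2 2.34-fold (adjusted p = 1.2e-07), with no overlap of the libraries in any of them. H2BC4 was 8.95-fold lower (adjusted p = 0.00049, edgeR): its GSK025 libraries held 116, 139 and 125 counts, and without GSK715 replicate 1 the log2 difference went from -3.16 to -4.19. H2AC11, H2BC15, H4C9, H2AC6 and H2AC25 were the others, with log2 differences of -3.24 to -0.56, the first that of H2AC11, which was -4.93 without GSK715 replicate 3. H4C11 and H4C12 did not pass, with log2 differences of 0.28 (SE 0.87) and 0.03 (SE 0.73), which leaves a wide interval.

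In WiDr GSK715 was followed by higher levels of H2AC6, H2AC25, H2BC12, H2BC21 and H3C6, the best-counted members of that table apart from H4C14, H4C15 and H1-2. In all, 8 members rose and 2 fell of 22 tested, where 33.6% of all 19340 tested genes rose and 32.2% fell (65.8% in either direction), and the median was 0.51 against 0.05 over all genes. The share called, 10 of 22, was below that background. The groups did not overlap in 12 of the 22, against 37.5% of all genes wholly higher and 34.6% wholly lower. H2AC6 rose the most among well-counted members: 3.87, 4.23 and 4.53 CPM with DMSO and 15.2, 16.9 and 14.8 with GSK715, 3.71-fold (log2 1.89, SE 0.11, adjusted p = 1.8e-07, edgeR). H2AC25 went from 4.87, 5.46 and 5.05 CPM to 12.7, 13.8 and 12.5, 2.54-fold (adjusted p = 1.7e-06, edgeR). In both the treated libraries lay well above every control.

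H3C6, an H3 gene whose model runs far past its stem-loop (chr6:26224199-26227473, plus strand), rose 2.52-fold, from 2.63, 2.06 and 2.24 CPM to 6.72, 5.03 and 5.73 (adjusted p = 9.3e-05, edgeR). H2BC21 rose 2.36-fold, from 3.15, 2.38 and 2.00 CPM to 5.53, 6.78 and 5.46 (adjusted p = 0.00036, edgeR), and H2BC12 1.95-fold, from 4.07, 3.92 and 6.14 CPM to 9.62, 9.23 and 8.73 (adjusted p = 0.00092, edgeR). The groups of all 3 genes were apart. Among weakly counted members, H4C16, the only member on chromosome 12 (chr12:14767999-14771131, minus strand), held 20, 17 and 21 counts with DMSO and 35, 53 and 57 with GSK715 (log2 1.33, SE 0.41, adjusted p = 0.016, edgeR). H2BC6 held 3, 2 and 7 and then 14, 20 and 29 (log2 2.42, SE 0.70, adjusted p = 0.012, edgeR). H4C16 was not called without GSK715 replicate 2 or 3 (adjusted p up to 0.066), nor H2BC6 without GSK715 replicate 3 (0.069). H2BC5 was called at 0.586, 0.746 and 0.661 CPM against 1.42, 1.03 and 0.958 (log2 0.77, SE 0.30, adjusted p = 0.042, edgeR), a call lost in DESeq2 (adjusted p = 0.11) and without any 1 of 5 of the 6 libraries (all but GSK715 replicate 3).

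The members that fell in WiDr were H2BC11 and H1-4, both on few reads. H2BC11 (chr6:27125897-27132750, minus strand) held 28, 15 and 37 counts with DMSO and 3, 4 and 0 with GSK715 (log2 -3.43, SE 0.85, adjusted p = 0.0052, edgeR; -4.03 without GSK715 replicate 2). H1-4, a linker histone gene (chr6:26156354-26157107, plus strand), held 11, 25 and 55 counts and then 3, 8 and 0 (log2 -2.94, SE 0.93, adjusted p = 0.018, edgeR), and was not called without DMSO replicate 3 or GSK715 replicate 1 (adjusted p up to 0.098), and stood at -4.16 without GSK715 replicate 2. H1-2, the leading member of HCT116, was at 3.02, 2.16 and 2.03 CPM with DMSO and 2.01, 2.58 and 1.98 with GSK715, which overlap (log2 -0.13, SE 0.23, adjusted p = 0.63, edgeR).

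**Figure D3:**
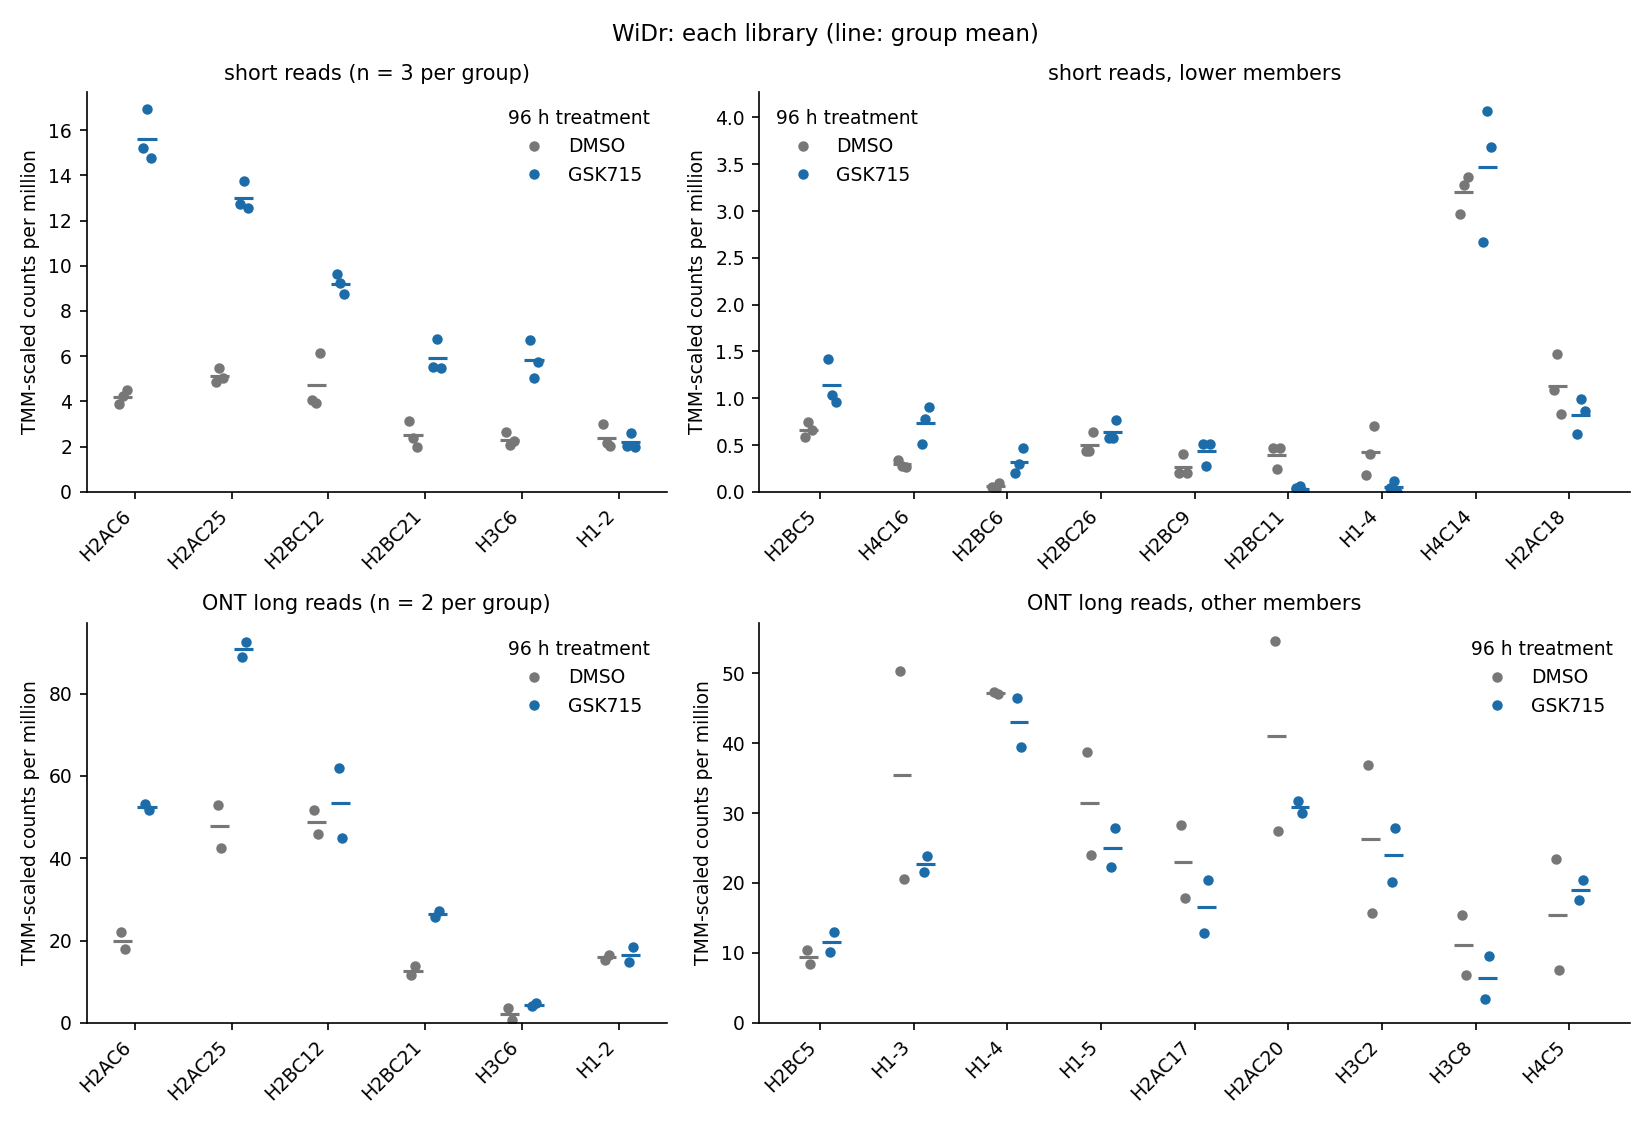
Each point is 1 WiDr library (y axis: TMM-scaled CPM) and each line a group mean, in short reads (top) and ONT long reads (bottom). H2AC6, H2AC25 and H2BC21 are higher with GSK715 in both read types, while the groups of H2BC12 are apart in short reads and overlap in ONT.

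The ONT libraries of WiDr saw a different set of histone RNAs. Per library total, members summed to 2367 ± 209 CPM with DMSO and 2187 ± 76.1 CPM with GSK715 (SD, n = 2 each), and the ranges overlapped. Of the 69 members, 60 had a higher mean CPM in ONT DMSO than in short-read DMSO, 6 were at 0 in both, and 3 (H2AC18, H2AC19 and H3C6) were lower. The matching share of all genes was not computed, and the levels are not adjusted for transcript length. In ONT DMSO 1 read can place a member higher, as for H2BC3 (0.308 against 0 CPM) and H2BC8 (0.308 against 0.0543 CPM). The tables were counted separately, so such levels are set side by side with no test. H4C3, an H4 gene of 435 annotated bases (chr6:26103876-26104310, plus strand), alone made up 76.6% of the ONT member counts: it held 1947 and 1766 TMM-scaled CPM with DMSO and 1732 and 1744 with GSK715. In the short reads of WiDr it had 4 counts in all, and 24 in HCT116. Its ONT level did not pass the test (log2 -0.10, SE 0.09, adjusted p = 0.60, edgeR).

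Other members were well counted in ONT and near 0 in WiDr short reads. Of these H1-3, H2AC20 and H3C2 were picked after their values had been seen. The ONT levels were, for H1-4, 47.4 and 47.0 CPM with DMSO and 46.5 and 39.5 with GSK715. H1-3 was at 50.3 and 20.6 and then 21.6 and 23.8, and H2AC20 at 54.6 and 27.4 and then 31.7 and 29.9. The DMSO libraries of H1-3 and H2AC20 differed from each other by more than the group means did. H3C2 (36.9 and 15.8 CPM, then 20.2 and 27.9) overlapped in the same way. The gap between the DMSO libraries was not limited to these genes. Per library total they stood at 108.7 and 147.9 CPM for the H1 sum, 144.2 and 216.3 for H2A and 44.1 and 81.5 for H3. For H2B they stood at 115 and 122 CPM, and for H4 at 1807 and 1947. H1-4, which fell in short reads, did not pass in ONT (log2 -0.14, SE 0.18, adjusted p = 0.73, edgeR). The difference between the read types was not tested. Of 31 other genes whose RNAs lack a poly(A) tail, the summed level was 454 to 587 CPM in ONT and 2.71 to 9.17 CPM in WiDr short reads. Their sum too stood higher in ONT, but 9 of the 31 had no count there, and 8 had none in WiDr short reads. What this has to do with the histone levels was not tested.

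**Figure D4:**
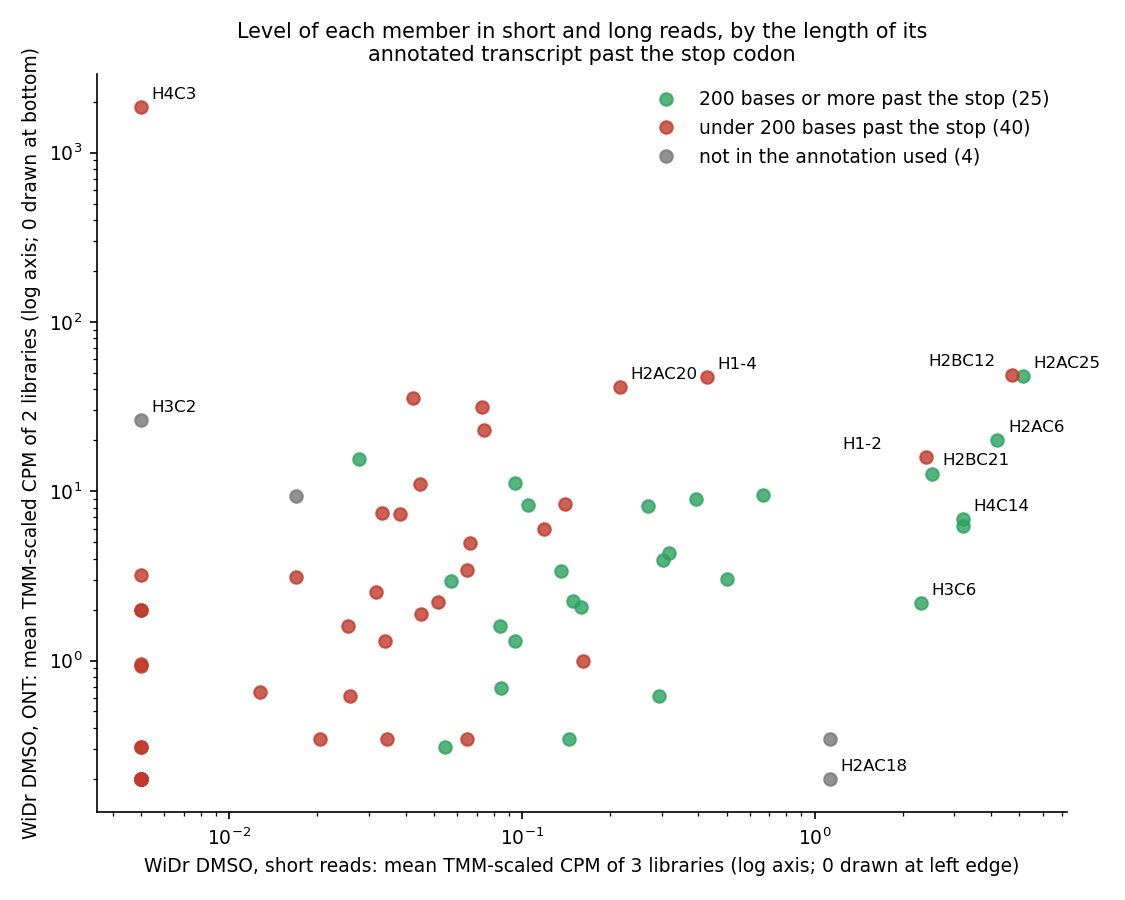
Each point is 1 member, placed by its mean TMM-scaled CPM in WiDr DMSO short reads (x axis, n = 3) and ONT (y axis, n = 2), both logarithmic, with 0 drawn at the edge. Colours give the length of the longest annotated coding transcript past the stop codon in GENCODE 29. H4C3 sits at the top left, and the members above 2 CPM in short reads are H2AC25, H2BC12, H2AC6, H4C14, H4C15, H2BC21, H1-2 and H3C6.

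Members with long and short annotated 3′ ends were counted unequally in the 2 read types. The 25 members whose model extends 200 bases or more past the stop codon held 50.7% of the member counts in HCT116, 75.1% in WiDr short reads and 9.53% in ONT. The ONT share turns on H4C3, a short model: without that gene it was 40.8%. Their median count over all libraries of a table was 324 in HCT116, 83 in WiDr short reads and 22.6 in ONT, against 9.5, 11.5 and 9 for the 40 members with shorter models. All 25 had a count in each table, and 24, 30 and 35 of the 40 did. Among short models, H1-2 and H2BC12 held 34.5% and 12.5% of the member counts in HCT116. The length of 200 bases was chosen after the levels had been seen, a longer model can also collect more reads, and no test was run.

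In ONT 3 members rose and 0 fell of 21 tested, where 4.29% of all 15877 tested genes rose and 4.51% fell (8.8% in either direction, with 48.7% of all calls higher under TMM and 37.4% under library totals). At an unadjusted p under 0.05, 2 members were lower, and DESeq2 called 0 lower. The groups did not overlap in 7 of the 21, against 24.6% of all genes wholly higher and 25.5% wholly lower. H2AC6 held 22.1 and 17.8 CPM with DMSO and 53.2 and 51.7 with GSK715, 2.60-fold higher (adjusted p = 6.6e-06, edgeR). H2AC25 went from 52.9 and 42.5 CPM to 88.9 and 92.6, 1.89-fold (adjusted p = 2.8e-05, edgeR), and H2BC21 from 11.7 and 13.7 to 25.6 and 27.2, 2.08-fold (adjusted p = 0.011, edgeR). All 3 were also called higher in the short reads of WiDr. DESeq2 called H2AC6 only (adjusted p = 0.070 for H2AC25 and 0.74 for H2BC21), and H2BC21 was not called without either DMSO library. H2BC12, at 51.7 and 45.9 CPM and then 61.9 and 44.9, did not pass (log2 0.13, SE 0.18, adjusted p = 0.75, edgeR). The ONT estimate for H1-2 (log2 0.06, SE 0.30) and for H2BC5 (0.29, SE 0.38) did not pass either. 12 of the 21 members tested in ONT were too low to test in WiDr short reads, so the 2 sets of tested members share 9.

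The response to GSK715 differed between the lines in 9 of 28 members tested in one fit over both short-read tables, 8 higher in WiDr and 1 lower, where 25.4% of 22298 genes were higher and 20.1% lower (45.5% in either direction, with 55.9% of all calls higher under TMM and 69.5% under library totals). The median difference was 1.07 log2 among these members and 0.24 over all genes. H2AC6 differed most among well-counted members: log2 -0.32 in HCT116 and 1.89 in WiDr in the separate fits. In the joint fit the difference was 2.26 (SE 0.23, adjusted p = 5.2e-07, edgeR). The joint fit has its own filter and scaling, so its differences are not exactly those between the separate fits. For H2BC5 the difference was 1.47 (SE 0.31, adjusted p = 0.00095, edgeR), with a fall in HCT116 and a rise in WiDr. H2BC12, H2AC25, H3C6 and H2BC21 differed by 1.36, 1.26, 1.27 and 1.06 log2. The contrast between the lines holds the cell line and the separately made tables together, which cannot be told apart. H1-2 did not pass (0.20, SE 0.20, adjusted p = 0.46, edgeR).

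**Figure D5:**
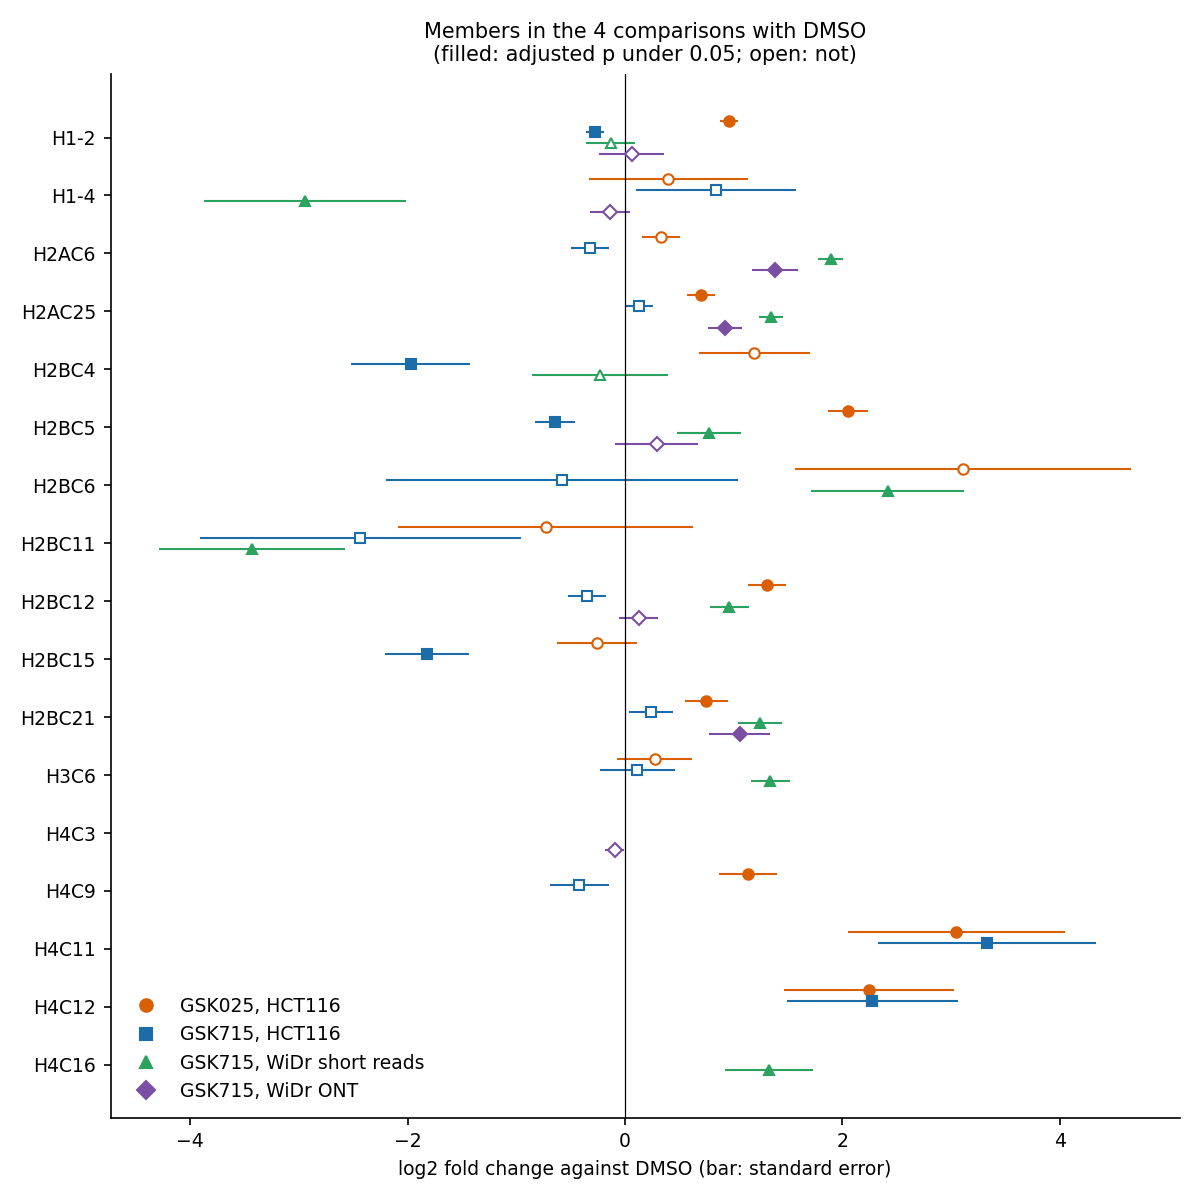
Log2 fold change against DMSO (x axis; bar: standard error) of the members called in any comparison with DMSO and of H4C3, filled where the adjusted p is under 0.05. H2AC6 lies at -0.32 with GSK715 in HCT116 and at 1.89 and 1.38 in WiDr short and ONT reads, and H2BC5 at 2.05, -0.64 and 0.77 in the short-read comparisons.

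Head-to-head neighbours were not called together in the few pairs where both genes were tested. H2A and H2B genes commonly lie head to head around one shared promoter region, and 12 pairs of members lie that way within 500 bases, 11 of them an H2A gene with an H2B gene. Other neighbours in a cluster were not counted in this way, and some were called in the same comparison, such as H1-4 (lower) and H2BC5 (higher) in WiDr. In no comparison with DMSO were both genes of a pair called. Both could be tested in only 4 of the 12 pairs in each short-read comparison, and in 1 pair in ONT. In WiDr both genes could be tested in 4 pairs, and exactly 1 gene of each was called. H2AC6 rose (log2 1.89) while H2BC4, which starts 218 bases away, did not pass (-0.23, SE 0.63). H2AC25 rose (1.34) while H2BC26, 233 bases away, did not pass (0.34, SE 0.37), and H2BC21 rose (1.24) while H2AC20, 322 bases away, did not (-0.47, SE 0.58). H2BC11 fell (-3.43) beside H2AC11 (-0.06, SE 0.97). The partners were at low counts, and the difference within a pair was not tested. With GSK715 in HCT116 H2BC4 and H2AC6 stood at log2 -1.97 and -0.32, and H2BC11 and H2AC11 at -2.43 and -2.27. There H2AC25 and H2BC26 stood at 0.13 and 0.94, and H2BC21 and H2AC20 at 0.24 and -0.45. Of these genes only H2BC4 was called.

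The other genes of the histone pathway moved in both directions. Their counts stand against shares of all tested genes of 22% higher and 22.1% lower with GSK025, 22.1% and 24.2% with GSK715 in HCT116, 33.6% and 32.2% in WiDr, and 4.29% and 4.51% in ONT. The replacement histones, which are mostly made all through the cell cycle from polyadenylated messages, fell in WiDr: 9 of 11 were lower and 1 higher, with a median log2 of -0.93 against 0.05 over all genes. H3-3B, a gene for the replacement H3, fell (-1.37, SE 0.027). Their summed level was 3141 to 3211 CPM with DMSO and 1664 to 1722 with GSK715. The members' sum on the same scale went the other way in the same libraries, from a mean of 35.8 to one of 66.6 CPM. In HCT116 GSK025 raised 5 and lowered 1 of the 11, and GSK715 raised 4 and lowered 5 (H2AX 0.65). In ONT 3 of 9 fell and 0 rose (H2AJ -0.98, H3-3B -0.33), while DESeq2 called 0 higher and 1 lower, and 1 gene was higher and 4 were lower at an unadjusted p under 0.05.

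Factors that cut the histone pre-mRNA were lower in WiDr with GSK715 in 10 of 13 genes and higher in 1, where 32.2% of all genes were lower, 33.6% higher and 65.8% called in either direction, with a median log2 of -0.64. CPSF2, a subunit of the cleavage complex, fell by 1.26 on the log2 scale (SE 0.043), and SLBP, the stem-loop binding protein, rose by 0.51 (SE 0.042). In HCT116 GSK715 lowered 7 and raised 3 of the 13, with ERI1, an exonuclease that trims the stem-loop end, at -1.22 (SE 0.054). GSK025 lowered 4 and raised 5, with CASP8AP2, which joins the U7 machinery, at -1.82 (SE 0.16). In ONT 2 of 13 fell (LSM10 -1.34, CPSF3 -0.53) and 0 rose. At an unadjusted p under 0.05 the ONT numbers were 3 lower and 0 higher, and DESeq2 called 0. Of the genes that decay histone RNA the numbers called by edgeR were 2 higher and 5 lower of 9 with GSK025, 3 and 6 with GSK715 in HCT116, 2 and 5 in WiDr, and 0 and 0 of 7 in ONT, where 0 were also found by DESeq2 and at an unadjusted p under 0.05.

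Genes that drive histone transcription were 4 higher and 4 lower of 9 with GSK025, 5 and 3 with GSK715 in HCT116, 5 and 2 in WiDr, and 0 and 0 in ONT (edgeR, with 0 by DESeq2 and 1 in each direction at an unadjusted p under 0.05). NPAT, the coactivator at histone gene clusters, was lower with GSK715 in HCT116 (-1.48, SE 0.11) and in WiDr (-0.32, SE 0.073), and CCNE1, the cyclin that activates it, was higher with all 3 short-read treatments (0.87, 0.72 and 1.57). Of 19 genes of S phase and replication, GSK025 raised 11 and lowered 4, GSK715 raised 7 and lowered 6 in HCT116 and raised 8 and lowered 6 in WiDr, where 44.1%, 46.4% and 65.8% of all genes were called in either direction. MCM2, a subunit of the replicative helicase, was higher in each (0.80, 0.45 and 0.40), and RRM2, which makes deoxynucleotides, was lower with GSK025 (-0.69) and in WiDr (-1.39). In ONT 0 of 19 were called by edgeR and 0 by DESeq2, with 2 higher and 3 lower at an unadjusted p under 0.05. Histone chaperones were 5 higher and 7 lower of 16 with GSK025, 5 and 9 with GSK715 in HCT116, 3 and 11 in WiDr, and 0 and 1 in ONT (ASF1B, -0.67), where DESeq2 called 0 and 1 gene was higher and 2 were lower at an unadjusted p under 0.05.

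Other RNAs without poly(A) tails were read as a measure of untailed RNA in the libraries. Their sum was 3.11 to 4.16 CPM with DMSO, 3.41 to 5.05 with GSK025 and 3.61 to 5.98 with GSK715 in HCT116, and 3.00 to 9.17 and 2.71 to 4.23 CPM in WiDr, overlapping in every case. With GSK025 0 of 7 tested genes of the list were called, and 0 at an unadjusted p under 0.05. In WiDr 0 of 4 were called by edgeR or DESeq2, and 1 was lower at an unadjusted p under 0.05. In ONT 0 of 5 were called by either tool, and 1 was higher at an unadjusted p under 0.05. With GSK715 in HCT116 RN7SK rose (log2 2.19, SE 0.74) and SNORA73B fell (-1.12, SE 0.41). Of the 7 tested genes there DESeq2 called 1 higher and 2 lower, and the same numbers had an unadjusted p under 0.05 in edgeR. Among all genes tested edgeR called 22.1% higher and 24.2% lower in that comparison. The 5 members long known to have a polyadenylated form (H1-2, H2AC6, H2BC5, H2BC12 and H2BC21) held 42.8 to 48.3 TMM-scaled CPM with DMSO, 93.8 to 105.2 with GSK025 and 34.9 to 41.8 with GSK715 in HCT116, and 13.4 to 15.4 and 31.9 to 36.6 CPM in WiDr. No group's range met that of its control, here or per library total (45.1 to 50.7, 95 to 105.4 and 33.3 to 38.8 CPM in HCT116, 12.8 to 14.7 and 33.5 to 38.1 CPM in WiDr).

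Markers of other cell types moved with some of the groups. The sum over 12 stromal, endothelial and immune markers was 55 to 59 CPM with DMSO, 41.0 to 47.1 with GSK025 and 101.4 to 110.5 with GSK715 in HCT116, and 20.6 to 22.9 and 37.1 to 43.5 CPM in WiDr. Nearly all of it came from CD68 and COL1A1: CD68, a lysosomal protein of macrophages that other cells also make, was at 37.7, 22.7 and 79.7 CPM in the HCT116 groups and at 9.83 and 24.1 CPM in those of WiDr. PTPRC, the marker common to white blood cells, was at 0 in all HCT116 libraries and at 0.113 and 0.0572 CPM in WiDr, and DCN of fibroblasts was at 0 in WiDr and at most 0.205 CPM in HCT116. The part of these markers in the histone results was not tested.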

How the data were processed

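RNA of 2 colorectal carcinoma lines was measured in 19 libraries, as the opening describes. The authors deposited gene counts for the short reads of HCT116 and of WiDr, and estimated counts for ONT, whole and fractional values per gene. Per the submitters' processing notes, cutadapt, HISAT2, StringTie, DESeq2, minimap2, Salmon and the build GRCh38 were used. Their versions and roles, the annotation, the handling of strand and the handling of reads that match several genes are not given in the sources used here, and the last decides how near-identical histone genes share reads. In the WiDr tables the control columns carry a name (NC) that the labels do not use, and were taken as DMSO because DMSO is the other group of that table.

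ONT estimated counts were rounded to whole numbers. Each table was fitted whole in edgeR 4.0.16 (R 4.3.3, limma 3.58.1): filterByExpr (minimum count 10, minimum total 15), TMM scaling, quasi-likelihood test by group, Benjamini-Hochberg adjustment over all genes tested, threshold 0.05. The difference between lines came from one fit of both short-read tables. Single genes and other lists were described as TMM-scaled CPM and the members' sums as CPM of the library total, with no test. Symbols were matched to Ensembl IDs through a gene name table, transcripts and positions are those of GENCODE 29, and promoters those of RefSeq. 14 histone pseudogenes and histone-like genes were left out. Named are the members called in any comparison with DMSO, the 5 with the highest mean CPM of each table, those with a known polyadenylated form, and the leading called genes of each pathway list, and others are said to be chosen later. 1 gene of the pathway lists is not reported here by name. Members and lists were chosen with earlier results of these data known. Alternatives were other scalings, no filter, DESeq2 1.42.0, only the groups compared, the replicate number as a block, leaving out each library and, chosen after seeing the data, a length offset. Replicates differed by more than sampling noise (chi-square per gene 11.3 to 28.9 in short reads and 1.73 to 2.41 in ONT), so each was counted as a sample. The scripts were tested on simulated data.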

Additional observations from a re-analysis of the deposited data

Results flagged for a closer look

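The GSK715 response of 9 members differed between WiDr and HCT116 by a test of the difference itself (edgeR quasi-likelihood test, adjusted p under 0.05). The differences, WiDr minus HCT116 on the log2 scale, were 2.26 for H2AC6, 1.47 for H2BC5, 1.36 for H2BC12, 1.33 for H4C15, 1.27 for H3C6, 1.26 for H2AC25, 1.06 for H2BC21, 5.19 for H2BC9 and -3.73 for H1-4. Line and table cannot be told apart in them.

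Of these 9, H2BC9 and H4C15 were not called in either line alone. H2BC9 held 4, 4 and 0 counts with DMSO and 0 in each GSK715 library of HCT116, so its fitted difference is no measure of size, and it was not called without any 1 of 11 of the 12 libraries. H4C15 shares its coding sequence with H4C14, whose difference of 1.37 did not pass (adjusted p = 0.093, edgeR), and it was not called without any 1 of 9 of the 12. H1-4 rested on 3, 8 and 0 counts with GSK715 in WiDr, and was not called without DMSO replicate 3 of WiDr (adjusted p = 0.064); without GSK715 replicate 2 of WiDr the difference was -5.02. H3C6 was not called without DMSO replicate 3 of HCT116, DMSO replicate 2 or GSK715 replicate 1 of WiDr, nor H2BC21 without GSK715 replicate 2 of WiDr (adjusted p up to 0.060 and 0.052).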

How the results depend on the processing

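Of 736 recomputed values of members, 656 kept their direction and their side of the threshold, 68 lost the call, 8 gained one and 4 changed sign, the last when 1 library was left out and none of them called. Over those fits H1-2 went from -0.28 to 0.056 in WiDr short reads, from -0.097 to 0.21 in ONT and from -0.026 to 0.31 between lines, and H2BC12 in ONT from -0.12 to 0.34. With library totals GSK715 in HCT116 lowered 8 members in place of 4, and with the length offset 7. In ONT the genes called fell from 1397 to 251 with no filter and 229 with DESeq2, which called 1 member higher in place of 3. Between lines DESeq2 called 2 members lower in place of 1. Sums scaled by TMM gave log2 ratios of -0.22 for GSK715 in HCT116 and 0.90 in WiDr. The causes were not tested.

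The replicate numbers did not pair the samples: the correlation of deviations of same-numbered libraries lay between -0.12 and 0.085. With the replicate block members called higher went from 8 to 7 for GSK025 and from 2 to 1 for GSK715 in HCT116 (H4C12 lost in both, adjusted p = 0.064 and 0.058), from 8 to 6 in WiDr (H2BC5 0.096, H4C16 0.055) and from 8 to 7 between lines (H2BC9 0.084). Members called lower went from 4 to 5 for GSK715 in HCT116, from 9 to 10 for GSK715 against GSK025 (H2BC21 gained, 0.041) and from 2 to 1 in WiDr (H1-4 0.052). The numbers of ONT members called were as without it.

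Leaving out each library in turn, members called higher and lower were 6 to 9 and 0 to 0 for GSK025, 1 to 2 and 2 to 6 for GSK715 in HCT116, 0 to 0 and 9 to 12 for GSK715 against GSK025, 6 to 8 and 1 to 3 in WiDr, 2 to 3 and 0 to 2 in ONT, and 5 to 9 and 0 to 2 between lines. All genes called were 464 to 1058 in ONT, the lowest without DMSO replicate 1 (591 without DMSO replicate 2). The log2 ratio of the sums was 0.89 to 0.97 for GSK025, -0.43 to -0.32 for GSK715 in HCT116, 0.99 to 1.05 in WiDr and -0.20 to -0.02 in ONT. With 1 ONT library left in a group, it is assumed to vary like the other group. ONT depth limits what could be called there, and members under the filter were not tested.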
